A study of Mus musculus with 3 samples.

Results

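Polycomb and related chromatin repressors were examined in whole male gonads of E14.5 mouse embryos. A list of 39 genes was followed by symbol, and 38 of them had at least 1 array probe carrying that symbol alone. Suv39h1, an H3K9 methyltransferase gene, had none. The 38 genes were covered by 78 probes, out of 19532 genes and 41174 probes on the array. They comprised 7 genes of Polycomb repressive complex 2 (PRC2) with its cofactor Jarid2, 12 of the PRC1 core and canonical PRC1, 4 of variant PRC1, 6 of the E2F6-containing complex PRC1.6, 5 H3K9 methyltransferase and co-repressor genes, and 4 class I histone deacetylase genes. The male gonads were Nanos2-/- Stra8-/-, Nanos2-/- Stra8+/- or, as the control, Nanos2+/- Stra8+/-, so the control animals carried 1 mutant copy of each gene and no wild-type gonad was compared. NANOS2 binds RNA in the germ cells of the fetal testis. STRA8, which retinoic acid induces, is required for meiosis to begin. RNA of whole gonads was labelled with the dye Cy3 and measured on Agilent one-colour arrays, 1 column of values per genotype, which the titles tie to replicates 1 and 2. With 1 column per genotype there is no replicate check, no p-value and no error between animals, and so few arrays limit the precision. The whole organ was measured, somatic cells included, and fewer cells of a type cannot be told apart from less RNA per cell.

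Polycomb proteins keep genes silent by modifying histones. PRC2 methylates histone H3 at lysine 27 through EZH1 or EZH2, and PRC1 ubiquitinates histone H2A through RING1 or RNF2. The form called PRC1.6 is built on PCGF6 and is brought to DNA by MGA with MAX, which bind E-boxes, and by E2F6. In mouse embryonic stem cells and fibroblasts PRC1.6 and E2F6 hold many meiotic and germline genes silent, together with H3K9 methyltransferases and deacetylases. In fetal germ cells PRC1 is known to restrain the early expression of Stra8 and other meiotic genes.

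All values are ratios as deposited, in which most probes had been set near 1, so a value says nothing about the brightness of a probe and cannot be set against another probe. A gene's difference is the mean over its probes of the log2 difference between columns, and its SD is over probes, not over animals. Over all genes the median difference was 0.04 for Nanos2-/- Stra8+/- against control, 0.18 for the column labelled Nanos2-/- Stra8-/- against control and 0.16 for that column against Nanos2-/- Stra8+/-. The column labelled Nanos2-/- Stra8-/- thus lay higher as a whole, and differences drawn from it are read beside these medians. A class of 7552 probes stayed below 0.7 in every column, as did the array's negative control. In this class the median difference was 0.37 for the column labelled Nanos2-/- Stra8-/- against control. No listed gene had all of its probes there, but 6 probes of 5 genes (Jarid2, Phc3, Scmh1, Setdb1 and Suv39h2) belonged to it. Nanos2 lay at 0.397 in the column labelled Nanos2-/- Stra8-/-, 0.364 in the Nanos2-/- Stra8+/- column, and 87.2 in control. Stra8 lay at 1.34, 1.13 and 0.108 in the same order, so its single probe was not low in the column labelled as lacking Stra8. Where this probe lies relative to the deleted part of the gene was not stated in the labels, and directions drawn from that column rest on its label.

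In the Nanos2-/- Stra8+/- column, set against control to ask what Nanos2 loss changes, the repressor genes lay close to control. None of the 38 differed by 2-fold in either direction. Of all genes, 2.35% passed 2-fold upward and 3.12% downward. With 38 genes a single gene is 2.63% of the list, here and in the comparisons below. A count of 0 is therefore near these shares. At the smaller size of 1.5-fold, none was higher and 1 was lower, Pcgf5, against 5.78% and 6.83% of all genes. The median over the 38 genes was 0.08, with 26 of them (68.4%) above 0, against 58.8% of all genes. Their differences had a standard deviation of 0.22, against 0.49 over all genes, Nanos2 included. The 2 values are not fully alike, because a mean over probes narrows the spread. Of the 38 genes 25 had 2 or more probes, against 8511 of all 19532 genes. The differences of the 38 genes ran from -0.64 for Pcgf5 to 0.55 for Ring1.

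In the column labelled Nanos2-/- Stra8-/- the repressor genes spread further, but again none reached 2-fold against control. Over all genes the shares were 4.24% upward and 2.81% downward. Ring1 was the 1 listed gene at least 1.5-fold higher and Ezh1 the 1 at least 1.5-fold lower, where 12.4% and 6.28% of all genes passed. Over all genes this split of 2431 higher and 1226 lower became 1848 and 1513 when columns were centred on their medians. The median was 0.12, which lay -0.06 from the median of all genes, and 28 of 38 genes (73.7%) were above 0, against 68.3% of all genes. Rnf2, Bmi1, Pcgf6 and Hdac1 lay just under the size, at 1.49-fold, 1.49-fold, 1.47-fold and 1.45-fold higher. Measured from the median of all genes, their log2 differences were smaller, at 0.40, 0.39, 0.38 and 0.36. Taking for each gene the 1 probe with the highest mean value put Rbbp4 and Suv39h2 past 2-fold, and their probes disagreed, as described further on.

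The column labelled Nanos2-/- Stra8-/- was also set against Nanos2-/- Stra8+/-, the comparison that asks what the loss of Stra8 adds on the Nanos2-null background. No listed gene passed 2-fold or 1.5-fold in either direction. Of all genes, 2.06% passed 2-fold upward and 1.01% downward, and 6.8% and 2.9% passed 1.5-fold. The median over the 38 genes was 0.13. The lowest value was that of Mga, at -0.53, and the highest that of Phc3, at 0.45. These 3 comparisons share columns pairwise, so their values are not independent of each other.

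**Figure D1:**
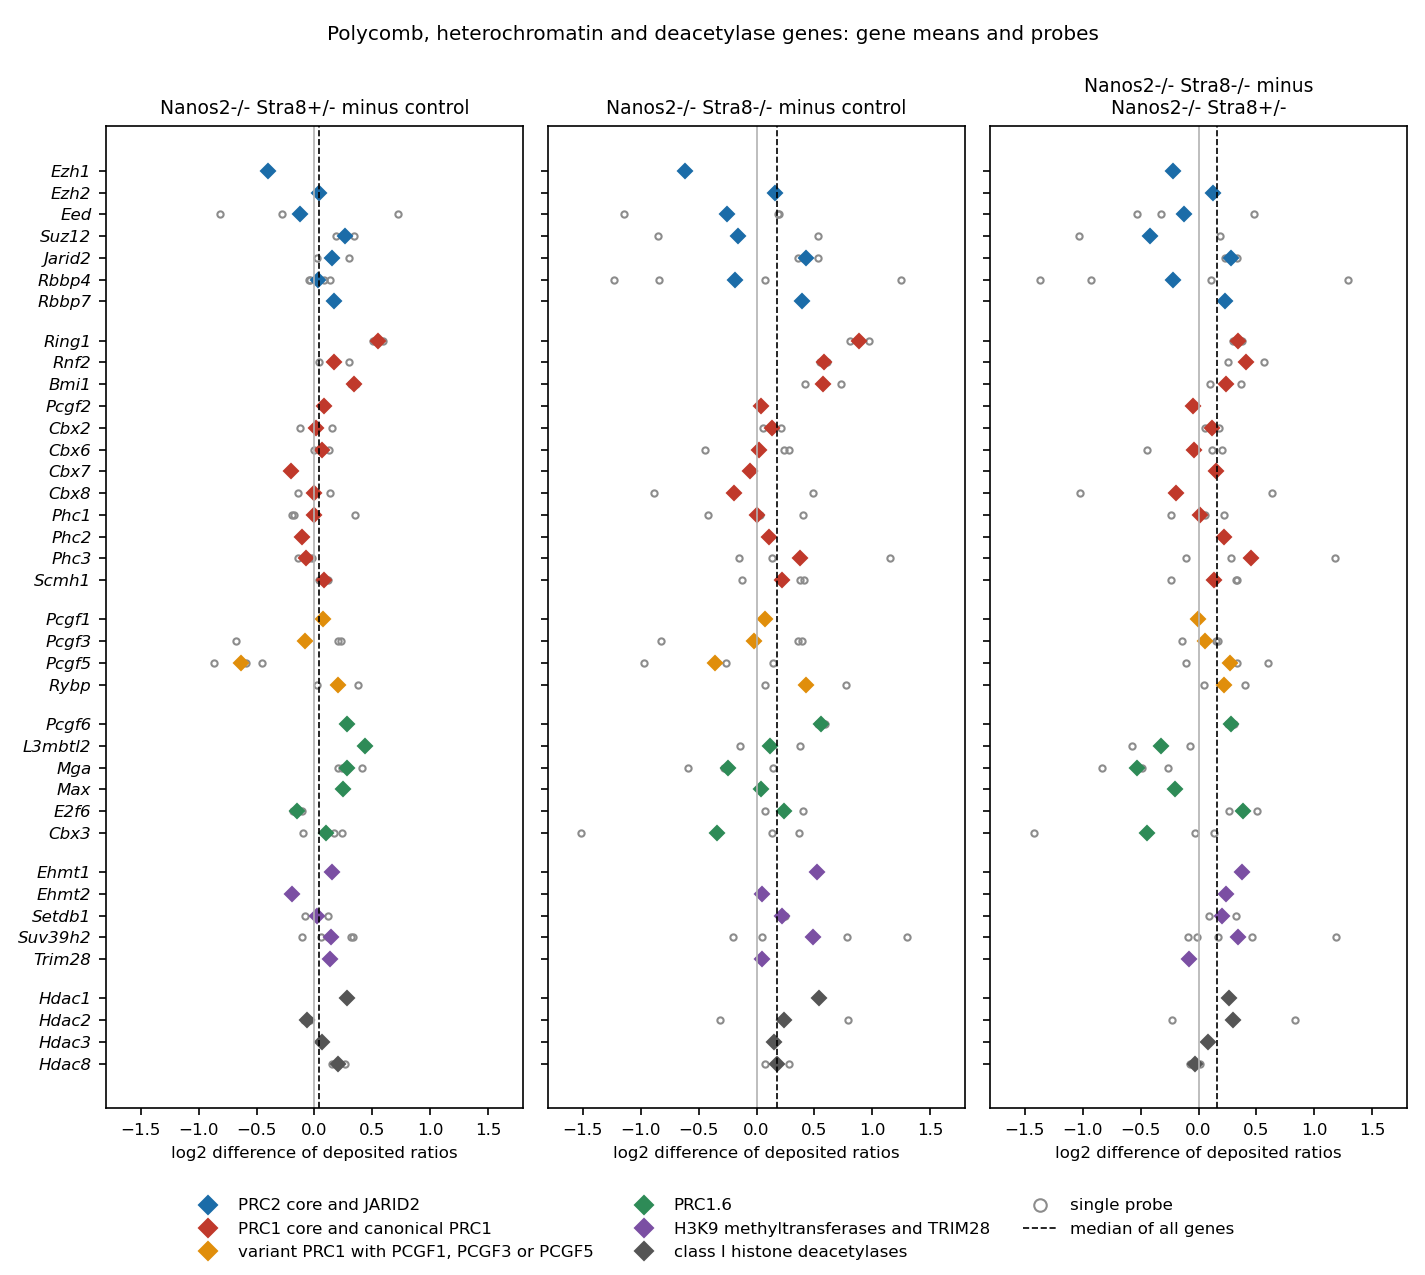
Log2 differences of deposited ratios for the 38 repressor genes, grouped by complex, in the 3 comparisons. Diamonds are means over the probes of a gene, open circles are single probes, and the dashed line is the median of all genes; no diamond lies beyond 1 in either direction, while single probes of Rbbp4, Cbx3, Eed, Phc3, Suv39h2, Suz12 and Cbx8 do.

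The 7 PRC2 genes, Jarid2 included, had a median of 0.04 with Nanos2 loss, the same as that of all genes. For the column labelled Nanos2-/- Stra8-/- the median was -0.16 against control and -0.13 against Nanos2-/- Stra8+/-, which lay -0.34 and -0.29 from those of all genes. In each of these comparisons 2 of the 7 genes were above the median of all genes. After quantile normalization the medians were -0.22 and -0.25. The medians of -0.16 and -0.13 are the means of single genes, Suz12 and Eed. Probes of Eed, Suz12 and Rbbp4 disagreed in that column. Of the remaining genes Ezh1 was below 0 in both comparisons, and Ezh2, Jarid2 and Rbbp7 were above 0. Ezh1, one of the alternative methyltransferases, had values of 0.857 in the column labelled Nanos2-/- Stra8-/-, 1.0 in the Nanos2-/- Stra8+/- column, and 1.32 in control. It was thus lower in both mutant columns, by 1.54-fold and 1.32-fold against control, on a single probe. Ezh2, the methyltransferase of dividing cells, was nearly flat, at 1.09, 1.0 and 0.972 in the same order of columns.

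Of the genes that anchor or recruit PRC2, Jarid2 and Rbbp7 were modestly higher without Nanos2. Jarid2, the cofactor that helps PRC2 to its targets, differed by 0.15 ± 0.14 with Nanos2 loss and by 0.43 ± 0.09 for the column labelled Nanos2-/- Stra8-/- against control (SD over 3 probes). All of its probes were above 0 in both, although 1 of them lay in the class below 0.7. Rbbp7, a histone-binding subunit, had values of 1.17 in the column labelled Nanos2-/- Stra8-/-, 0.997 in the Nanos2-/- Stra8+/- column, and 0.890 in control.

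For the other PRC2 genes the probes gave different answers. The 3 probes of Eed, the reader of H3K27 methylation, had differences of -0.81, -0.28 and 0.73 with Nanos2 loss. Suz12, the scaffold of the complex, had 2 probes that were 0.34 and 0.18 with Nanos2 loss, but 0.53 and -0.85 for the column labelled Nanos2-/- Stra8-/- against control. Its mean of -0.16 in the second comparison therefore describes neither probe.

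In the PRC1 core, Ring1, Rnf2 and Bmi1 were graded over the 3 columns, while Pcgf2 was not. Of the 12 genes of the core and canonical PRC1, 5 (41.7%) had this order by gene means, against 41.8% of all genes. Ring1, one of the alternative H2A ubiquitin ligases, had values of 1.30 and 1.23 by its 2 probes in the column labelled Nanos2-/- Stra8-/-, 1.0 and 1.0 in the Nanos2-/- Stra8+/- column, and 0.662 and 0.704 in control. The control column was lowest and the column labelled Nanos2-/- Stra8-/- was highest by both probes. The difference from control was 0.89 ± 0.12 for the column labelled Nanos2-/- Stra8-/- and 0.55 ± 0.06 for the Nanos2-/- Stra8+/- column (SD over 2 probes), or 1.85-fold and 1.46-fold.

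Rnf2, the other ligase, had values of 1.19 and 1.48 in the column labelled Nanos2-/- Stra8-/-, 0.999 and 1.0 in the Nanos2-/- Stra8+/- column, and 0.814 and 0.972 in control. Its order over the columns was the same as that of Ring1, but with Nanos2 loss alone the second probe differed by only 0.04. Bmi1, a PCGF subunit of canonical PRC1, had values of 1.29 and 1.10, then 0.999 and 1.03, then 0.778 and 0.822 in that order of columns. It was 1.49-fold higher in the column labelled Nanos2-/- Stra8-/- and 1.27-fold higher in the Nanos2-/- Stra8+/- column than in control. Its paralogue Pcgf2 was flat on 1 probe, at 0.992, 1.03 and 0.968.

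This graded order was common among all genes. By gene means 15 of the 38 listed genes (39.5%) were highest in the column labelled Nanos2-/- Stra8-/- and lowest in control, against 41.8% of all genes. With the order required of every probe, 11 genes followed it, namely Ring1, Rnf2, Bmi1, Pcgf6, Rybp, Jarid2, Rbbp7, Ezh2, Ehmt1, Hdac1 and Hdac3. That is 28.9% of the list, against 33.4% of all genes. Among genes with 2 or more probes it was 6 of 25 (24.0%), against 18.6% of all such genes.

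The chromobox and polyhomeotic genes, which read H3K27 methylation and help PRC1 to cluster, stayed within 1.5-fold by gene means in both comparisons with control. Cbx2, the form linked to male sex determination, differed by 0.01 ± 0.19 with Nanos2 loss and by 0.13 ± 0.11 for the column labelled Nanos2-/- Stra8-/- against control (SD over 2 probes). Cbx7 differed by -0.20 and -0.05, Cbx6 by 0.07 and 0.02, and Phc1 by -0.01 and 0.01. Cbx8 had 1 probe at 0.49 and the other at -0.89 in the second comparison. For Phc3, a polyhomeotic gene, 1 probe had 1.0 in the column labelled Nanos2-/- Stra8-/-, 0.442 in the Nanos2-/- Stra8+/- column, and 0.450 in control, and its other probes were nearly flat. Phc2 and Scmh1, a partner of the polyhomeotic proteins, differed from control by 0.11 and 0.22 in the column labelled Nanos2-/- Stra8-/-, but by -0.02 each after quantile normalization. Of the 3 probes of Scmh1, 2 lay in the class below 0.7, at 0.37 and 0.41 in that comparison. The remaining Scmh1 probe was at -0.12, so the sign of the mean rests on the low probes.

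Pcgf5, a subunit of variant PRC1, was the gene that lay furthest below control with Nanos2 loss. Its 3 probes had values of 0.999, 1.15 and 0.793 in the column labelled Nanos2-/- Stra8-/-, 0.793, 0.762 and 0.853 in the Nanos2-/- Stra8+/- column, and 1.20, 1.04 and 1.55 in control. The Nanos2-/- Stra8+/- column was below control by all 3 probes, while the column labelled Nanos2-/- Stra8-/- was not. The difference was -0.64 ± 0.21 with Nanos2 loss, or 1.55-fold lower, and -0.36 ± 0.56 for the column labelled Nanos2-/- Stra8-/- against control (SD over 3 probes). Rybp, the subunit that stimulates variant PRC1, was 0.38 and 0.02 by its probes with Nanos2 loss. Pcgf3 had a single probe far below the others, at -0.68 against 0.21 and 0.23, and Pcgf1 differed by 0.08 on 1 probe.

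The PRC1.6 genes, the repressors most directly tied to meiotic genes, had a median of 0.26 with Nanos2 loss, 0.22 above that of all genes. Of the 6, 5 (83.3%) were above 0, against 58.8% of all genes. None reached 1.5-fold, which 5.78% of all genes passed upward and 6.83% downward. The median was 0.08 for the column labelled Nanos2-/- Stra8-/- against control, which lay -0.10 from that of all genes, and -0.27 for the same column against Nanos2-/- Stra8+/-. When columns were centred on their medians the middle value became -0.01, while the others kept their signs at 0.21 and -0.30. Quantile normalization moved the last of them to -0.45.

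Mga, the large DNA-binding scaffold of the complex, had values of 0.824, 0.946 and 0.655 by its 3 probes in the column labelled Nanos2-/- Stra8-/-, 1.15, 1.14 and 1.17 in the Nanos2-/- Stra8+/- column, and 1.0, 0.857 and 0.989 in control. All 3 probes were highest in the Nanos2-/- Stra8+/- column. The difference was 0.28 ± 0.11 with Nanos2 loss and -0.53 ± 0.28 for the column labelled Nanos2-/- Stra8-/- against Nanos2-/- Stra8+/- (SD over 3 probes). L3mbtl2, the MBT-domain subunit that compacts chromatin, had values of 1.01 and 0.892, then 1.06 and 1.33, then 0.777 and 0.986 in that order of columns. Both of its probes were again highest in the Nanos2-/- Stra8+/- column, 0.44 ± 0.01 above control (SD over 2 probes). Max, the partner of MGA, followed the same order on 1 probe, with 0.984, 1.13 and 0.959.

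The remaining PRC1.6 genes did not share that order. Pcgf6, which defines the complex, had values of 1.24 and 1.18 in the column labelled Nanos2-/- Stra8-/-, 1.0 and 0.994 in the Nanos2-/- Stra8+/- column, and 0.823 and 0.822 in control. It was graded like Ring1, with differences from control of 0.56 ± 0.04 and 0.28 ± 0.00 (SD over 2 probes). E2f6, the DNA-binding E2F of the complex that represses rather than activates, was lowest in the column where Mga was highest. Its values were 1.08 and 1.32 in the column labelled Nanos2-/- Stra8-/-, 0.900 and 0.928 in the Nanos2-/- Stra8+/- column, and 1.02 and 1.0 in control. Both probes were lowest in the Nanos2-/- Stra8+/- column, by -0.15 ± 0.06 against control. Cbx3, a heterochromatin protein shared with this complex, had probes at 0.16, 0.24 and -0.10 with Nanos2 loss.

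By gene means 4 of the 6 PRC1.6 genes (66.7%) were highest in the Nanos2-/- Stra8+/- column, as were 11 of all 38 listed genes (28.9%) and 17.0% of all genes. These shares describe 3 columns without replicates and hold no test. The 4 were Mga, L3mbtl2, Max and Cbx3, and for Cbx3 only 1 probe of 3 had that order.

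**Figure D2:**
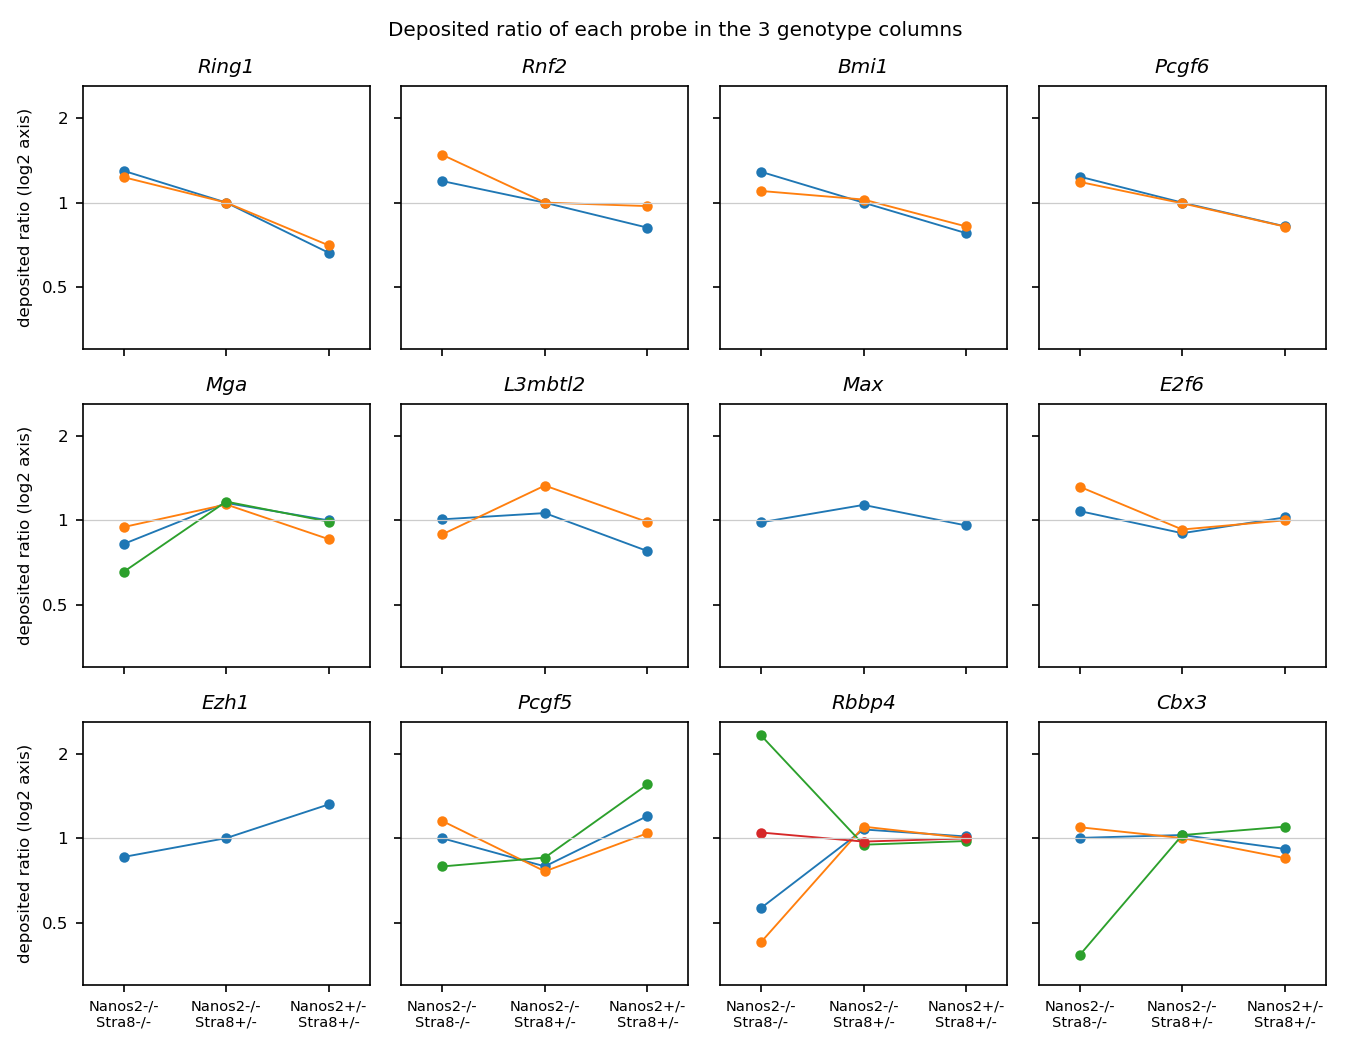
Deposited ratio on a log2 axis of each probe (1 line per probe) of 12 repressor genes in the Nanos2-/- Stra8-/-, Nanos2-/- Stra8+/- and Nanos2+/- Stra8+/- columns. Ring1, Rnf2, Bmi1 and Pcgf6 descend from left to right by every probe, Mga, L3mbtl2 and Max peak in the middle column, and the probes of Rbbp4 and Cbx3 part in the column labelled Nanos2-/- Stra8-/-.

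The H3K9 methyltransferase genes, which deposit the mark of heterochromatin, were near all genes in both comparisons, with medians of 0.13 with Nanos2 loss and 0.22 for the column labelled Nanos2-/- Stra8-/- against control. Ehmt1, which encodes GLP, had values of 1.30 in the column labelled Nanos2-/- Stra8-/-, 1.0 in the Nanos2-/- Stra8+/- column, and 0.902 in control. Its partner Ehmt2, which encodes G9a, had 1.07, 0.904 and 1.03. With Nanos2 loss the 2 partners thus lay on opposite sides of control, at 0.15 and -0.19, each on 1 probe. Setdb1, the methyltransferase brought in by TRIM28, differed by 0.02 ± 0.14 with Nanos2 loss (SD over 2 probes, 1 of them below 0.7 throughout), and Trim28 itself by 0.13. Suv39h2, the form enriched in germ cells, had 5 probes. Their lowest and highest differences were -0.10 and 0.33 with Nanos2 loss, and -0.20 and 1.30 for the column labelled Nanos2-/- Stra8-/- against control.

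Of the class I deacetylase genes, Hdac1 was the highest against control. Its single probe had 1.20 in the column labelled Nanos2-/- Stra8-/-, 0.997 in the Nanos2-/- Stra8+/- column, and 0.822 in control. Its close paralogue Hdac2 differed by -0.06 ± 0.03 with Nanos2 loss (SD over 2 probes), and in the second comparison its probes stood at 0.79 and -0.32. Hdac3, the NCOR-bound deacetylase, differed from control by 0.15 in the column labelled Nanos2-/- Stra8-/- and by 0.07 in the Nanos2-/- Stra8+/- column. Hdac8 differed by 0.18 and 0.20. In the first of these columns Hdac3 and Hdac8 lay -0.03 and -0.004 from the median of all genes. The 4 genes had a median of 0.21 there and of 0.14 with Nanos2 loss, against 0.18 and 0.04 over all genes.

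Disagreement between probes of one gene was larger in the column labelled Nanos2-/- Stra8-/-. Of the 25 listed genes with 2 or more probes, 10 (40.0%) had probes spanning at least 1 log2 unit for that column against control, compared with 18.8% of all such genes. With Nanos2 loss it was 1 of 25 (4.0%), against 8.61%. Rbbp4, the histone-binding subunit shared by PRC2 and deacetylase complexes, spanned most. Its 4 probes had values of 0.564, 0.426, 2.32 and 1.05 in the column labelled Nanos2-/- Stra8-/-, 1.07, 1.10, 0.947 and 0.972 in the Nanos2-/- Stra8+/- column, and 1.01, 1.0, 0.976 and 0.998 in control. In the same order of probes the differences from control were -0.85, -1.23, 1.25 and 0.07 for the column labelled Nanos2-/- Stra8-/-. With Nanos2 loss they were 0.08, 0.14, -0.04 and -0.04. Cbx3 had values of 1.0, 1.09 and 0.383 in the column labelled Nanos2-/- Stra8-/-, against 0.915, 0.849 and 1.10 in control. Suv39h2 had a single probe at 2.23 there, against 0.903 in control. The labels do not place these probes on the transcripts, and the cause of the disagreement was not tested.

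Other subunits and partners of these complexes were read from wider lists, of which 68 of 72 genes were measured. Nanos2 loss put 1 of them at least 2-fold higher and 0 lower, and the column labelled Nanos2-/- Stra8-/- against control put 2 higher and 0 lower. The higher genes are 1.47% and 2.94% of the measured genes, beside 2.35% and 4.24% of all genes. With 68 genes a single gene is 1.47%, so these counts are near the shares of all genes. Downward, 3.12% and 2.81% of all genes passed. The higher genes were Kdm4d and, in the second comparison, also Epop. Kdm4d, an H3K9 demethylase gene of the germline, had values of 1.08 in the column labelled Nanos2-/- Stra8-/-, 1.08 in the Nanos2-/- Stra8+/- column, and 0.398 in control, or 2.71-fold higher in both mutants. Epop, a PRC2 accessory gene known from embryonic stem cells, had 1.39, 0.993 and 0.568. It was 2.44-fold higher in the column labelled Nanos2-/- Stra8-/- and 1.75-fold higher in the Nanos2-/- Stra8+/- column than in control. Both rest on 1 probe, and whether the control values lay above background is not known.

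The opposing demethylases gave mixed values. Of 8 demethylase genes 7 (87.5%) were above 0 with Nanos2 loss, against 58.8% of all genes. For the column labelled Nanos2-/- Stra8-/- against control it was 3 (37.5%), against 68.3%. Kdm6b, an H3K27 demethylase, had values of 0.729 in the column labelled Nanos2-/- Stra8-/-, 1.12 in the Nanos2-/- Stra8+/- column, and 1.0 in control. It and Kdm4a, an H3K9 demethylase, were the 2 of 8 genes (25%, against 2.9% of all genes) that passed 1.5-fold downward for the column labelled Nanos2-/- Stra8-/- against Nanos2-/- Stra8+/-, each at -0.62. The probes of Kdm4a stood at -0.35 and -0.89. Kdm4c, also an H3K9 demethylase, was higher by both probes with Nanos2 loss, at 0.65 and 0.35. Kdm3a, an H3K9 demethylase active in germ cells, differed from control by -0.41 in the column labelled Nanos2-/- Stra8-/- and by -0.46 in the Nanos2-/- Stra8+/- column. Among the other deacetylases 2 of 12 genes were above 0 with Nanos2 loss, against 58.8% of all genes, with a median of -0.07, and Hdac11 lay lowest at -0.47. For the column labelled Nanos2-/- Stra8-/- 6 of 12 were above 0 against control, and 9 of 12 against Nanos2-/- Stra8+/-, where the median of 0.16 equalled that of all genes. Cbx1, another heterochromatin protein, was higher by 0.59 and 0.41 in the same order of mutants. Sap30, a subunit of the SIN3 deacetylase complex, was 1.64-fold higher in the column labelled Nanos2-/- Stra8-/-, on 1 probe.

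**Figure D3:**
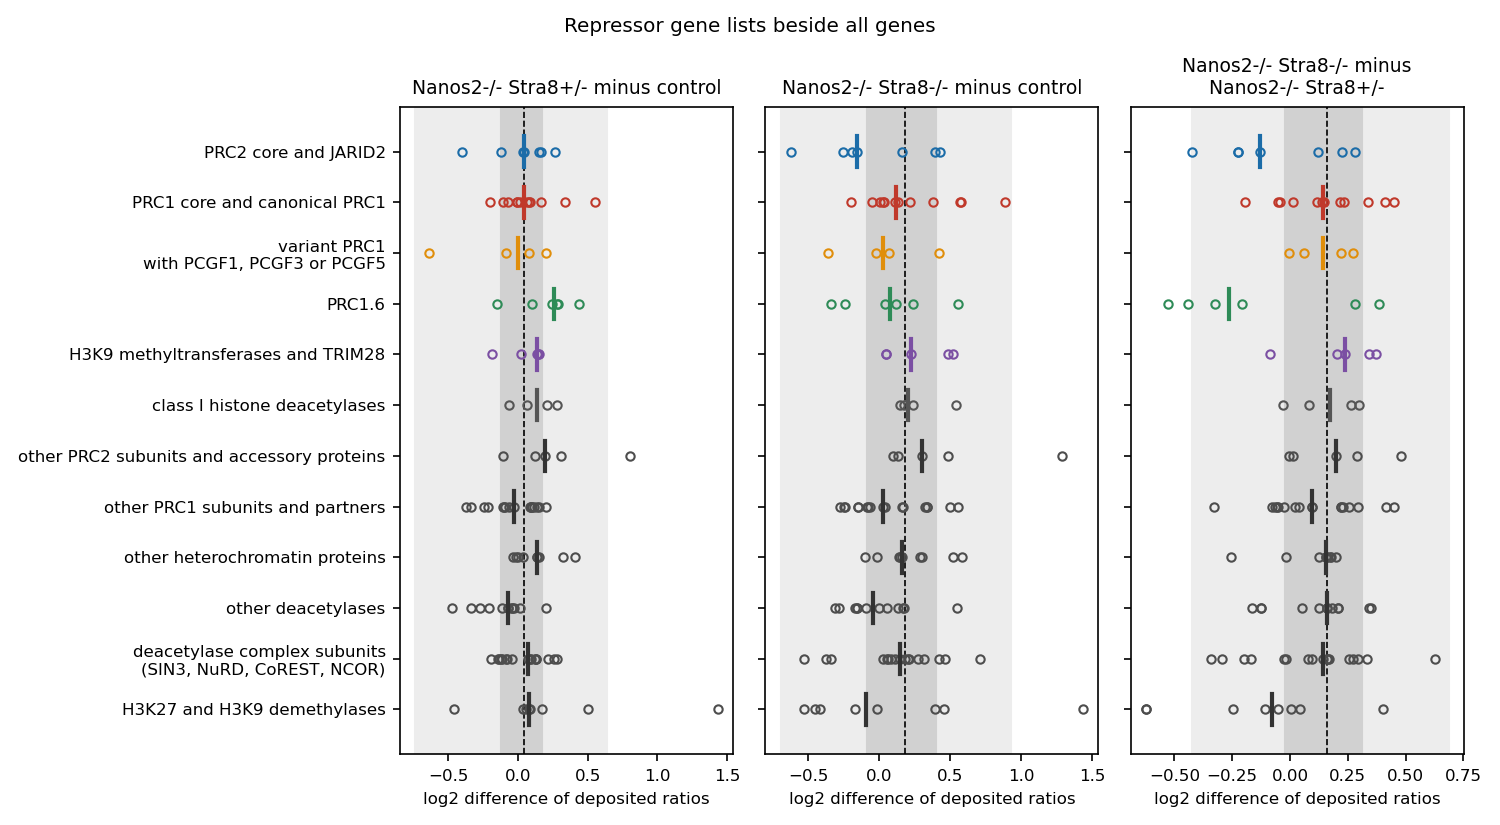
Log2 differences of the 6 groups of listed repressor genes and of 6 wider lists (1 circle per gene, thick bars for list medians), beside all genes. The dark band holds the middle of all genes from percentile 25 to 75, the pale band from 5 to 95, and the dashed line is their median; list medians outside the dark band are those of PRC1.6 and the other PRC2 subunits (above it, left), of PRC2 and the demethylases (below it, middle) and of PRC2, PRC1.6 and the demethylases (below it, right).

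Meiotic genes, the known targets of these repressors in other cells, were read from a list of 37 germline genes, of which 36 were measured. With Nanos2 loss 4 passed 2-fold upward (11.1%, against 2.35% of all genes) and 0 downward (3.12% of all genes). The counts were again 4 and 0 for the column labelled Nanos2-/- Stra8-/- against control, where all genes had 4.24% and 2.81%. At 1.5-fold the list went both ways. In the first comparison 6 were higher and 4 lower (16.7% and 11.1%, against 5.78% and 6.83% of all genes). In the second 9 were higher and 5 lower (25% and 13.9%, against 12.4% and 6.28% of all genes). The 4 genes at least 2-fold higher were the same in both comparisons, namely Stra8, Terb1, Sycp1 and Taf7l. Against these, the list as a whole had a median of -0.10 with Nanos2 loss, with 16 of 36 genes above 0. Within it, 6 measured genes were taken from general knowledge as bound by E2F6, namely Stag3, Smc1b, Slc25a31, Tuba3a, Hormad1 and Tex11. By gene means all 6 were below 0 with Nanos2 loss, with a median of -0.16 and none past 1.5-fold. The 2 probes of Tuba3a stood at 0.01 and -0.38. For the column labelled Nanos2-/- Stra8-/- against control 4 of the 6 were above 0, with a median of 0.02. Of all genes, 58.8% were above 0 in the first comparison and 68.3% in the second. Against Nanos2-/- Stra8+/- all 6 were above 0 in the column labelled Nanos2-/- Stra8-/-, with a median of 0.25. In that comparison 72.5% of all genes were above 0, with a median of 0.16.

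The promoters of such genes were searched for the E-box CACGTG, the site of MGA with MAX, and for the E2F letters TTCCCGC, in the 250 bases before each RefSeq start, on both strands. Upstream windows were found for 33 of the 37 genes, and 13 of these (39.4%) held the E-box, against 6.86% of all genes with a window. The E2F letters were in 11 of 33 (33.3%), against 4.38%. Of the 38 repressor genes themselves 33 had a window, 8 of them (24.2%) with the E-box and 5 (15.2%) with the E2F letters. The base composition of the windows was not matched, the motifs overlapped in 1 window over all genes, and a match is a description and not a shown binding site. The windows below show genes that were higher without Nanos2 (Taf7l, Sycp1 and Stra8) and genes of the E2F6-bound list (Stag3, Slc25a31 and Hormad1), on assembly GRCm38.p6, with both kinds of match in capitals.
Taf7l: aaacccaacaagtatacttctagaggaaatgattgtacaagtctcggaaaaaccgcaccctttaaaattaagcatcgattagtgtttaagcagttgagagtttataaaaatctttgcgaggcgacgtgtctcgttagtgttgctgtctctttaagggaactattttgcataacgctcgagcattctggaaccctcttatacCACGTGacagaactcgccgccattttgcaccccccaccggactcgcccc
Sycp1: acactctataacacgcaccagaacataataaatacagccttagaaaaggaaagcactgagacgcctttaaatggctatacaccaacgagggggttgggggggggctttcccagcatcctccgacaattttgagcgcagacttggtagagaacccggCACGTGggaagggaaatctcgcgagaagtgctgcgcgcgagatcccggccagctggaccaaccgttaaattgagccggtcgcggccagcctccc
Stra8: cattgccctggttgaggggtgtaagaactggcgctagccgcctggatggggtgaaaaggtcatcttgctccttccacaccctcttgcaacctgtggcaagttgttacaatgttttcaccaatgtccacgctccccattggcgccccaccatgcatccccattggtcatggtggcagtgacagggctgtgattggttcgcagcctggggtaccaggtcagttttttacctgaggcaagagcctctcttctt
Stag3: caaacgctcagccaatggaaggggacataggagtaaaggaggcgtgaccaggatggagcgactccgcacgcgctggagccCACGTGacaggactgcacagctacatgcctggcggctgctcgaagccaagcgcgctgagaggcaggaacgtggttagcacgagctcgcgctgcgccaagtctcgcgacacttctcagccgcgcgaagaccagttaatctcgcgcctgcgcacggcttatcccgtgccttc
Slc25a31: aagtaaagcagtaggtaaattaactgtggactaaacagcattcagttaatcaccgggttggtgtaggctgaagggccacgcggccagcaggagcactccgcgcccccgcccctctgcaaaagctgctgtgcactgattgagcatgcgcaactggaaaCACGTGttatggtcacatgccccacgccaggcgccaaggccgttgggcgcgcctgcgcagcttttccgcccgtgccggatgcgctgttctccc
Hormad1: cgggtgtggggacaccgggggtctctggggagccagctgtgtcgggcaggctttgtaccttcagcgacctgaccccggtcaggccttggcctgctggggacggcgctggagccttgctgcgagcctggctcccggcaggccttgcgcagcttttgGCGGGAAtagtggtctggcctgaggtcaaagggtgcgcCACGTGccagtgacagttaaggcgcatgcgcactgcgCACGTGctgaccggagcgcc

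Each window lies upstream of the annotated start. That of Taf7l, which encodes a germline relative of the TFIID subunit TAF7, is chrX:134476491-134476740 on the minus strand, with its E-box beginning 49 bases before the start. That of Sycp1, whose protein bridges paired meiotic chromosomes, is chr3:102936101-102936350 on the minus strand, with the E-box at 94 bases. The window of Stra8, chr6:34920698-34920947 on the plus strand, held neither motif. The E-box of Stag3, a meiotic cohesin gene, begins 170 bases before the start in chr5:138280259-138280508 on the plus strand. That of Slc25a31, the germline ADP/ATP carrier, begins at 93 bases in chr3:40708621-40708870 on the plus strand. Hormad1, a meiotic axis gene, held E-boxes at 57 and 20 bases and, on the reverse strand, the E2F letters at 95 bases, in chr3:95559427-95559676 on the plus strand.

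Genes with the same E-box lay on both sides of the control. Taf7l had values of 1.14 and 1.16 by its probes in the column labelled Nanos2-/- Stra8-/-, 1.01 and 0.995 in the Nanos2-/- Stra8+/- column, and 0.392 and 0.356 in control. Sycp1 had 1.02, 1.13 and 0.419 on 1 probe in that order. Both were thus low in control only. Stag3 had 0.961, 0.920 and 1.34 and Slc25a31 had 0.999, 0.778 and 1.09 on 1 probe each, which are highest in control. Hormad1 was flat, at 1.03 and 1.06, then 0.986 and 0.924, then 1.04 and 1.03.

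Over the 13 measured genes with the E-box, 4 were above 0 and 9 below with Nanos2 loss, and the median was -0.48. Over the 19 without it 11 were above 0 and 8 below, with a median of 0.05. For the column labelled Nanos2-/- Stra8-/- against control the medians were -0.12 and 0.24. For the same column against Nanos2-/- Stra8+/- they were 0.24, with 11 of 13 above 0, and 0.07, with 10 of 19 above 0. The E-box genes furthest below control with Nanos2 loss were Tdrd1 and Mael of the piRNA pathway and the bromodomain gene Brdt, at -0.75, -0.63 and -0.68, while Taf7l and Sycp1 stood at 1.43 and 1.44. For the E2F letters the medians with Nanos2 loss were -0.03 over 10 genes with them and -0.21 over 22 without. For the column labelled Nanos2-/- Stra8-/- against control they were 0.24, with 9 of 10 above 0, and -0.14, with 10 of 22 above 0.

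**Figure D4:**
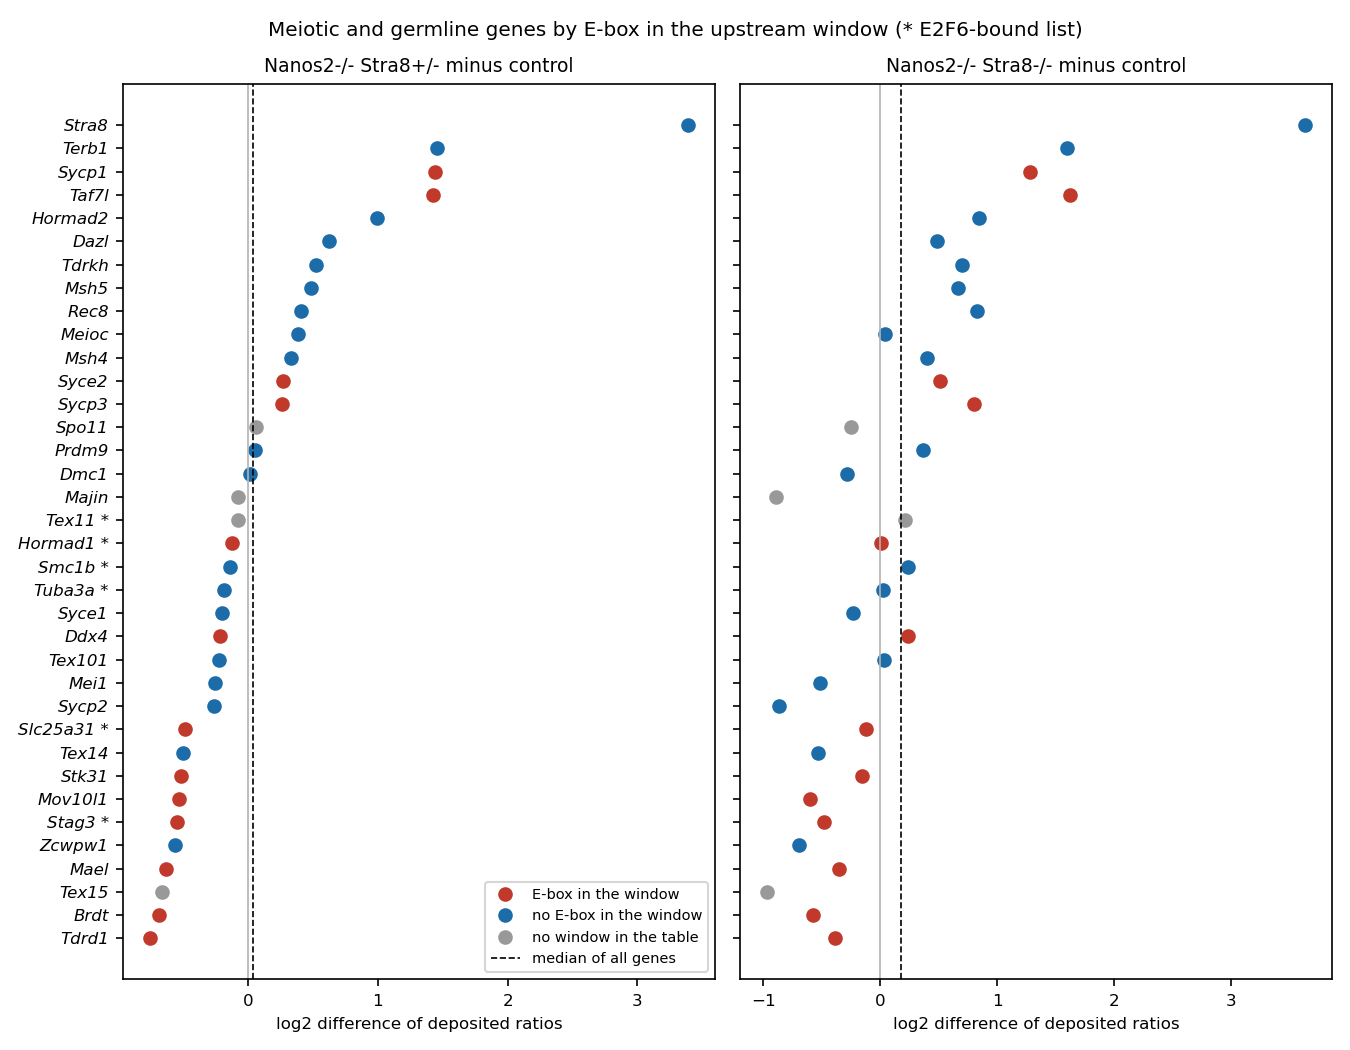
Log2 differences from control of 36 meiotic and germline genes for the Nanos2-/- Stra8+/- column (left) and the column labelled Nanos2-/- Stra8-/- (right), coloured by an E-box in the 250 bases upstream. E-box genes stand both among the highest (Sycp1 and Taf7l) and among the lowest (Tdrd1, Brdt and Mael) in the left-hand panel, and the dashed line is the median of all genes.

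Genes that are textbook Polycomb targets outside the germline were read in the same way. Of 16 such genes 1 was at least 2-fold higher and 0 lower with Nanos2 loss, and 2 were higher and 1 lower for the column labelled Nanos2-/- Stra8-/- against control. Over all genes the shares higher and lower were 2.35% and 3.12% in the first comparison and 4.24% and 2.81% in the second, and with 16 genes a single gene is 6.25%. Nkx2-2, a neural homeobox gene, differed by 1.26 with Nanos2 loss and by 1.93 for that column against control, on 1 probe. Pax3, another developmental factor, passed 2-fold in the second comparison by its mean, with probes at 3.11-fold and 1.35-fold. The probe at 1.35-fold lay in the class below 0.7. With Nanos2 loss the other Pax3 probe differed by -1.20 and the low one by 0.14. The lower gene was Cdkn2a, the classical target of BMI1, with values of 0.384 in the column labelled Nanos2-/- Stra8-/-, 0.999 in the Nanos2-/- Stra8+/- column, and 1.26 in control. Its probe and those of Bmi1 therefore lay in opposite orders over the 3 columns, which are too few to relate the genes.

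Cell type markers were read beside these lists. All 8 germ cell markers and all 6 Sertoli cell markers had a probe outside the class below 0.7. The germ cell markers had a median of 0.24 with Nanos2 loss, with 5 of 8 above 0, and of 0.26 for the column labelled Nanos2-/- Stra8-/- against control. With Nanos2 loss they ran from -0.89 for Dnd1 to 0.82 for Nanos3. At 1.5-fold 2 were higher and 2 lower (25% each, against 5.78% and 6.83% of all genes). The Sertoli cell markers had medians of 0.07 and 0.31. The Leydig cell markers had -0.05 and -0.27, with 0 of 4 above the median of all genes in the second comparison. The granulosa cell markers had 0.12 and 0.47, with 2 of 4 at least 1.5-fold higher in the second (50%, against 12.4% of all genes). Mesonephric markers stood at 1.04 and 0.30, and ran from -0.46 to 2.05 with Nanos2 loss. In that comparison 3 of 5 were at least 2-fold higher (60%, against 2.35% of all genes). Pax2 differed by 0.09, and Pax8 was below 0 by both probes, at -0.74 and -0.19. Endothelial markers had medians of 0.06 and 0.15, macrophage markers 0.16 and 0.13, and erythroid markers 0.26 and 0.26. All 4 erythroid markers were above 0 in both comparisons, against 58.8% and 68.3% of all genes. Levels cannot be summed over such ratios, and the part of cell composition in the repressor values was not tested.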

How the data were processed

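RNA of whole male gonads at E14.5 was labelled with Cy3 from 0.20 µg and hybridised to Agilent arrays, per the labels' protocols. The submitters' processing notes name Agilent Feature Extraction 9.5 as the software. The deposited values are linear ratios, 1 column per genotype. The normalization and the way arrays were combined are not given in the sources used here. No entry exceeded 1.001 in all 3 columns, so most probes appear divided by a middle value of their own. Of 41267 entries 93 control spots were left out. The platform annotation gave 1 symbol for 32664 probes, several for 45 (left unnamed), and did not list 8465. Values were log2-transformed without a pseudocount or filter, and each gene took the mean difference over its probes (Python 3.11.15, pandas 2.3.3). This departs from an earlier analysis of these data, which took the probe with the highest mean and so favoured probes high in 1 column. Genes were counted at 2-fold and 1.5-fold. There was no test. The steps were tested on simulated data. The arrays' depth is unknown. Named genes were all listed repressors and, per wider list and comparison, the 4 largest with probes of 1 sign. Mael, Tdrd1, Brdt, Dnd1 and Nanos3 were chosen after their values were seen. Members and lists were chosen with earlier results of these data known. Promoters come from RefSeq, GRCm38.p6.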

Additional observations from a re-analysis of the deposited data

How the results depend on the processing

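With 1 column per genotype nothing can be left out, and no paired analysis was possible because each genotype has a single column and no test. Among counts and medians of the 38 repressor genes, 101 values under the alternatives stayed close to those reported and 16 did not. Taking 1 probe per gene gave, with Nanos2 loss, 1 gene higher and 2 lower at 1.5-fold. For combined loss (the column labelled Nanos2-/- Stra8-/- against control) it gave 2 genes higher at 2-fold, and 7 higher and 3 lower at 1.5-fold. For the column labelled Nanos2-/- Stra8-/- against Nanos2-/- Stra8+/- it gave 2 higher at 2-fold and 4 at 1.5-fold. By construction it favours probes high in 1 column. Requiring every probe past 1.5-fold left 0 genes lower with Nanos2 loss and 0 in combined loss, where Ezh1 has 1 probe and at least 2 were required. Dropping probes that never reached the column median, or those below 0.7 throughout, gave 2 genes higher at 1.5-fold in combined loss. Quantile normalization gave 1 gene higher with Nanos2 loss, 0 lower in combined loss and 2 lower against Nanos2-/- Stra8+/-, all at 1.5-fold. It moved the median to -0.00064 in combined loss and 0.0068 against Nanos2-/- Stra8+/-, and the cause was not tested. Over all genes, quantile normalization gave 1607 genes at least 1.5-fold higher in combined loss, against 2431 reported. Against Nanos2-/- Stra8+/- it put 59.7% of genes past 1.5-fold on the higher side, against 70.1%. Of values for single genes 2067 stayed within the spread over probes and 108 did not. No gene that was past 1.5-fold by the mean over its probes changed sign. Smaller means could change sign, as taking 1 probe moved Rbbp4 in combined loss from -0.19 to 1.25. The unknown distance of low values from background limits every fold.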
